A study of Mus musculus with 9 samples.

Results

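The circadian clock core and output genes were followed through development of the mouse central nervous system (CNS). The 10 genes were the activators Arntl, Clock and Npas2, the repressors Per1, Per2, Per3, Cry1 and Cry2, the nuclear receptor Nr1d1 and the output gene Dbp. The rule takes them by symbol from 45706 gene identifiers and uses no measured value, and each was found as a single Ensembl gene. The members themselves were chosen with earlier results of these data known. Bulk RNA sequencing was done on C57BL6/J mice with no treatment named, and 3 libraries were made at each of 3 ages. These were E9.5 and E14.5, in days of embryonic life, and the adult at P60, in days after birth. E9.5 tissue was the head cut behind the 4th ventricle, from which tissue outside the neuroectoderm was trimmed. E14.5 tissue was brain freed of its meninges. P60 tissue was CNS from mice anaesthetised with Ketamine and Xylazin and perfused with PBS, steps that the labels do not give for the embryos. The time of day of collection is not given in the sources used here, and its part in any difference between stages cannot be told apart from age, nor can those of anaesthesia, perfusion and dissection.

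The clock is a feedback loop of transcription that runs with a period of about a day in most cells. ARNTL (BMAL1) pairs with CLOCK or NPAS2 and activates E-box genes, among them the Per and Cry genes, whose proteins return to the nucleus and block the activators. A second loop holds Nr1d1 (REV-ERB alpha), which represses Arntl, and ROR receptors, which activate it. DBP, with TEF and HLF, drives D-box genes and carries the rhythm to outputs. In the adult brain the suprachiasmatic nucleus of the hypothalamus keeps time for the body, while many other regions hold clocks of their own.

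Libraries held 30481975 to 35619093 counted reads, and 17971 genes were tested. Values are CPM, the count of a gene scaled to the TMM-adjusted library total, given in the order of replicates 1, 2 and 3. Across genes, log2 CPM correlated at 0.98 to 0.995 within a stage and 0.61 to 0.857 between stages. Whether the replicates of a stage came from different animals is not stated, and p-values cover just the spread among these libraries, which may be technical. Fold changes are fitted log2 values ± SE by edgeR, and a gene is called at an adjusted p of at most 0.05, with adjustment over all tested genes. In bulk tissue fewer cells of a type and less RNA per cell cannot be told apart. Summed levels of 4 mature neuron markers were 11.4 to 13 CPM at E9.5, 251 to 359 at E14.5 and 4770 to 5490 at P60. For 4 oligodendrocyte markers the sums at the same stages were 47.7 to 53.2, 42.7 to 66.7 and 12300 to 14700 CPM, and for 4 neural progenitor markers 1250 to 1530, 1320 to 1920 and 93.9 to 119 CPM. For 4 astrocyte markers they were 14.3 to 16.5, 139 to 208 and 1150 to 1690 CPM. Sums of 4 microglia markers were 1.63 to 3.35, 44.9 to 52.5 and 255 to 299 CPM, those of 3 erythroid markers 1550 to 2090, 216 to 409 and 5.17 to 18 CPM, and those of 4 mesenchyme and meninges markers 161 to 233, 139 to 347 and 58.1 to 87.3 CPM. The last 2 sums hide opposite moves of single markers. Hbb-bh1 averaged 1710, 1.91 and 0.032 CPM at E9.5, E14.5 and P60, Hba-a1 130, 261 and 10, and Alas2 46.9, 20.5 and 0.873. From E9.5 to E14.5, mean Twist1 went from 54.9 to 2.51 CPM and Prrx1 from 63.9 to 12.8 CPM. Col1a1 went the other way, from 67 to 170 CPM, as did Dcn, from 1.04 to 40.5 CPM. None of these markers was without reads in any stage, and their part in the differences of the clock genes was not tested. E9.5 replicate 1 stood apart in 3 cardiac muscle markers, which summed to 223 CPM there and to at most 4.71 CPM in the other E9.5 libraries.

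All 10 clock genes passed the filter on low counts. At E14.5 against E9.5, 3 of the 10 were higher (Arntl, Npas2 and Nr1d1), against 34% of all genes tested, and 2 were lower (Per3 and Cry1), against 30.7% of all genes. At P60 against E14.5, 6 were higher (Arntl, Npas2, Per3, Cry2, Dbp and Nr1d1), against 36.7% of all genes, and 0 were lower by edgeR, against 39.4%. At an unadjusted p below 0.05 the number lower was also 0. At P60 against E9.5, 7 were higher, against 42% of all genes, and Cry1 was lower, against 40.6%. The median log2 fold changes of the 10 genes were 0.30, 0.70 and 0.94 in the 3 comparisons in that order, against 0.03, -0.06 and 0.05 over all genes. The shares called at E14.5 against E9.5 were near those of all genes. Calls of at least 2-fold numbered 4 of 10 in each comparison, against 43.5%, 56.8% and 67.6% of all genes in the same order. Libraries did not overlap for 6 of 10 genes at E14.5 against E9.5 (72.1% of all genes), for 6 at P60 against E14.5 (76.3%) and for 8 at P60 against E9.5 (84.9%), so clock genes without overlap were no more frequent than genes in general. The comparisons share libraries, so their values are given side by side and are not independent of each other.

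**Figure D1:**
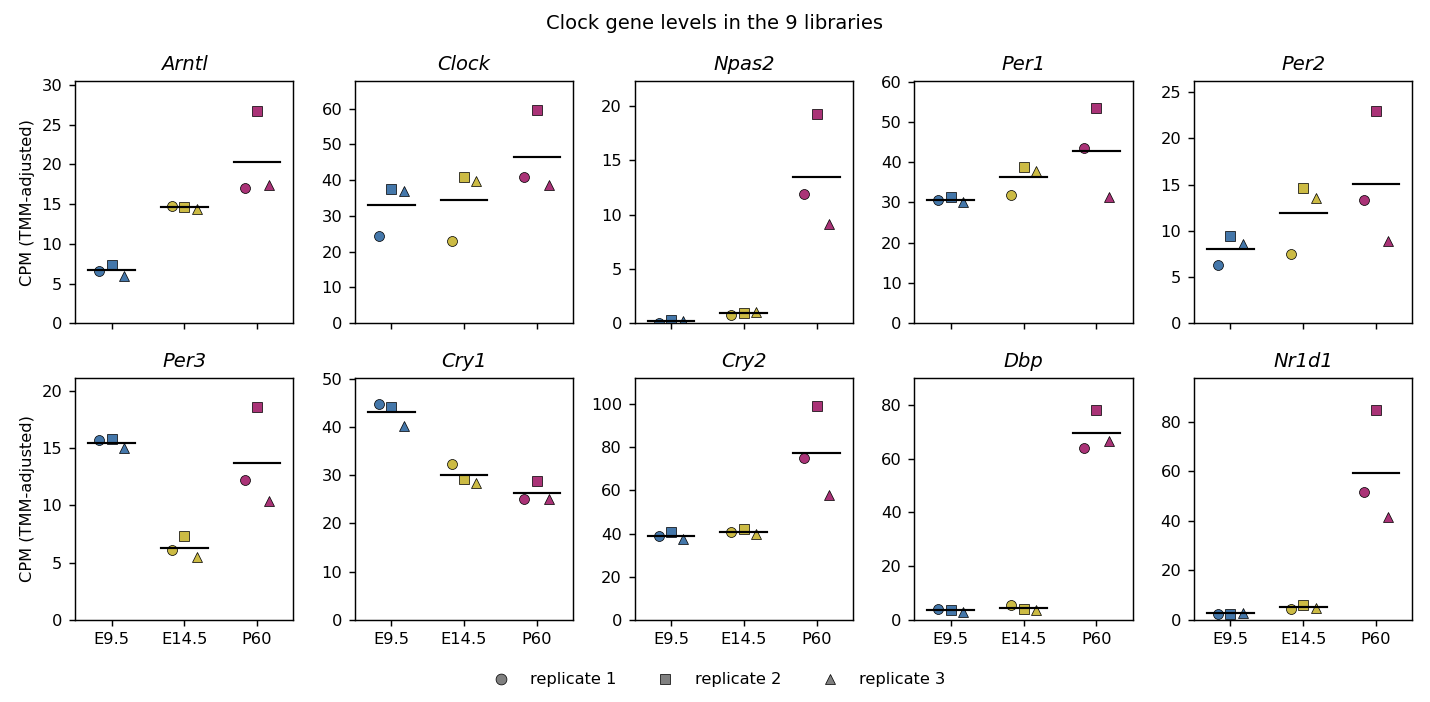
Level of each clock gene in the 9 libraries, in CPM on linear axes that start at 0, with a panel per gene, a point per library and a bar at the stage mean. Npas2, Dbp and Nr1d1 lie far higher at P60 than at either embryonic stage, while Clock libraries overlap between the stages except for those of P60 and E9.5.

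Among the activators, Npas2, a paralogue of Clock that is prominent in the forebrain, differed most between stages. It held 0.0669, 0.299 and 0.16 CPM at E9.5, 0.784, 0.979 and 1.06 CPM at E14.5, and 11.9, 19.3 and 9.16 CPM at P60. Its 3 stages did not overlap, and the E9.5 level rested on 16 reads in all. Npas2 was 5.29-fold higher at E14.5 than at E9.5 (log2 fold change 2.40 ± 0.47, SE; adjusted p = 0.001) and 14.2-fold higher at P60 than at E14.5 (3.83 ± 0.36; adjusted p = 3.1e-06). Arntl, the shared partner of both activators, held 6.63, 7.33 and 5.97 CPM at E9.5, 14.8, 14.7 and 14.4 CPM at E14.5, and 17, 26.7 and 17.4 CPM at P60. The E14.5 libraries were nearly equal and all lay above every E9.5 library, and P60 replicate 2 stood above the other P60 libraries. Arntl was 2.2-fold higher at E14.5 than at E9.5 (1.14 ± 0.19; adjusted p = 3.5e-04). The difference of P60 from E14.5 was small at 0.48 ± 0.19 (adjusted p = 0.036), and it lost its call in 6 of 9 fits that each left out 1 library. Without P60 replicate 2 that difference was 0.23 (adjusted p = 0.13), and it was 0.34 with library totals as the scale (adjusted p = 0.12). Without E9.5 replicate 1 or 2, or any of the E14.5 libraries, it was 0.46 to 0.48 (adjusted p = 0.05 to 0.093).

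Clock, the DNA-binding partner of ARNTL, held 24.5, 37.5 and 37 CPM at E9.5, 22.9, 40.9 and 39.7 CPM at E14.5, and 40.8, 59.7 and 38.7 CPM at P60. Replicate 1 was the low library of both embryonic stages, and the E14.5 libraries overlapped with those of both other stages. Clock differed by 0.06 ± 0.26 at E14.5 against E9.5 (adjusted p = 0.85) and by 0.43 ± 0.26 at P60 against E14.5 (adjusted p = 0.16). The P60 difference from E9.5, 0.49 ± 0.26, was not called either (adjusted p = 0.1). Within-stage drift with transcript length bears on this long gene, as described further on. With that drift removed Clock was called at P60, by 0.44 against E14.5 (adjusted p = 0.012) and by 0.48 against E9.5 (adjusted p = 0.0064). The removal was added after seeing the data and acts only on spread within a stage. The fold changes hardly moved from 0.43 and 0.49, so these calls come with the smaller spread. Without E14.5 replicate 1 the difference from E9.5 was also called (0.49; adjusted p = 0.048). The log2 ratio of Npas2 to Clock averaged -7.60 ± 0.66 at E9.5, -5.14 ± 0.27 at E14.5 and -1.83 ± 0.23 at P60 (SD, n = 3 each). The ratio differed across stages (two-sided exact permutation test, p = 0.0036, the smallest this design allows; adjusted over 6 gene pairs, p = 0.0054).

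The promoter stretches of Per1, Cry1, Per3 and Nr1d1 are shown as examples that hold E-box or D-box letters. That of Cry2, which also holds such letters, is not shown. Sequences are the bases before the gene start in RefSeq (GRCm38.p6), given 5′ to 3′ on the gene's strand, without bases that lie in annotated exons. Capitals mark the E-box CACGTG, the E-box variant CACGTT (written AACGTG where it reads on the other strand) or the D-box TTATGTAA. The stretches are chr11:69098699-69098947 on the plus strand for Per1, and on the minus strand chr10:85185065-85185304 for Cry1, chr4:151044666-151044915 for Per3 and chr11:98775378-98775627 for Nr1d1.
Per1: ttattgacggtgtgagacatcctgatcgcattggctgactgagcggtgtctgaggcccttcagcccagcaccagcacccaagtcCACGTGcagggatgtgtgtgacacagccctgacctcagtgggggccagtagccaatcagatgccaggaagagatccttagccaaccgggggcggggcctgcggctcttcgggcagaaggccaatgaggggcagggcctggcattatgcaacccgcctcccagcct
Cry1: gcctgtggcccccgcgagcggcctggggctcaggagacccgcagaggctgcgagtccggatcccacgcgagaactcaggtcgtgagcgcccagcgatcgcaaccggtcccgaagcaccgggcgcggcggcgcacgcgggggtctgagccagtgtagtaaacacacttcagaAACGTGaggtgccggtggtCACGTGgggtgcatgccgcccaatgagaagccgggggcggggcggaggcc
Per3: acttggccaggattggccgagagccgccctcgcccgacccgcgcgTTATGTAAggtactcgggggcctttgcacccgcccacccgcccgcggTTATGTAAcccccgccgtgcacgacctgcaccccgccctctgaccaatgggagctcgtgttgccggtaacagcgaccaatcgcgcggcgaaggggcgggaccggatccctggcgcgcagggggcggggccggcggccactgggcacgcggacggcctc
Nr1d1: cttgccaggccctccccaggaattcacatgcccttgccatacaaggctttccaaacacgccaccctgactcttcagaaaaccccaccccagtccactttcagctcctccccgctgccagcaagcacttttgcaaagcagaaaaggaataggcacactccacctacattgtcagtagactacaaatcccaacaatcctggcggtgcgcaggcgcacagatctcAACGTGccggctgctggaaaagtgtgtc

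Both strands of the 250 bases before each of 32851 RefSeq gene starts were searched. CACGTG was present in 6.02% of all windows, CACGTT in 3.85%, and the D-box TTATGTAA or TTACGTAA in 0.931%. Of the clock genes, 9 of 10 had an entry in the RefSeq table, and Per2 was not matched. Per1 held CACGTG at 166 bases before the upstream of its listed starts. Cry1 held CACGTG at 60 bases and CACGTT at 79 bases before its start. The variant lay at 28 bases before the start of Nr1d1 and at 166 bases before that of Cry2. Per3 held the D-box at 205 and at 158 bases, and no other clock gene window held it. None of these letters was found in the windows of Arntl, Clock, Npas2 or Dbp. The cAMP element TGACGTCA (1.55% of windows) and the ROR/REV-ERB element (0.332%) were found in none of the matched windows of the 10 genes. A match describes letters in a window and does not show binding.

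Of the period genes, Per3 changed in both consecutive steps and Per1 and Per2 were called in neither. Per1, which light and other signals induce quickly in the adult, held 30.6, 31.4 and 30.1 CPM at E9.5, 31.9, 38.9 and 37.9 CPM at E14.5, and 43.6, 53.5 and 31.4 CPM at P60. The lowest P60 library lay level with the highest E9.5 library and below all E14.5 libraries. Neither consecutive step was called for Per1 (0.24 ± 0.18, adjusted p = 0.27, and 0.24 ± 0.18, adjusted p = 0.25), whereas P60 against E9.5 was (0.48 ± 0.18; adjusted p = 0.031). That last call was lost in 5 of 9 fits without 1 library, which were P60 replicate 1 and any of the E9.5 libraries (0.46 to 0.49; adjusted p = 0.07 to 0.086) and P60 replicate 2. It was 0.29 without P60 replicate 2 (adjusted p = 0.11) and 0.44 with library totals as the scale (adjusted p = 0.054). Without P60 replicate 3, the step to P60 was called for Per1 (0.41; adjusted p = 0.037).

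Per2, the period gene whose protein is a main brake on the activators, held 6.29, 9.42 and 8.55 CPM at E9.5, 7.45, 14.6 and 13.6 CPM at E14.5, and 13.3, 23 and 8.9 CPM at P60. All 3 stages overlapped. Per2 was not called in either step (0.56 ± 0.35, adjusted p = 0.18, and 0.34 ± 0.34, adjusted p = 0.38). It was 1.86-fold higher at P60 than at E9.5 (0.90 ± 0.35; adjusted p = 0.033), a call lost without P60 replicate 2 (0.46; adjusted p = 0.19), E9.5 replicate 1 (0.74; adjusted p = 0.11) or E9.5 replicate 3 (0.93; adjusted p = 0.063). The step to P60 changed sign to -0.10 without P60 replicate 2.

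Per3, the period gene not needed for the core rhythm, fell and then rose. It held 15.7, 15.8 and 15 CPM at E9.5, 6.09, 7.3 and 5.52 CPM at E14.5, and 12.2, 18.6 and 10.4 CPM at P60. All E14.5 libraries lay below those of both other stages, and the P60 range spanned the E9.5 range. Per3 was 2.46-fold lower at E14.5 than at E9.5 (-1.30 ± 0.22; adjusted p = 3.4e-04) and 2.18-fold higher at P60 than at E14.5 (1.12 ± 0.22; adjusted p = 7e-04). P60 against E9.5 was not called (-0.18 ± 0.21; adjusted p = 0.45), but was without P60 replicate 2 (-0.45; adjusted p = 0.025). The log2 ratio of Per3 to Per1 averaged -0.98 ± 0.02 at E9.5, -2.53 ± 0.22 at E14.5 and -1.65 ± 0.17 at P60 (SD, n = 3 each; exact permutation test, adjusted p = 0.0054). That of Per2 to Per1 averaged -1.94 ± 0.29, -1.66 ± 0.38 and -1.58 ± 0.32 at the same stages (adjusted p = 0.44 in the exact permutation test).

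The cryptochromes Cry1 and Cry2, the repressors that bind the activators in partnership with the period proteins, moved apart. Cry1 held 44.7, 44.2 and 40.3 CPM at E9.5, 32.3, 29.3 and 28.4 CPM at E14.5, and 25, 28.7 and 25 CPM at P60. Every E14.5 and P60 library lay below every E9.5 library, while the E14.5 and P60 ranges overlapped. Cry1 was 1.44-fold lower at E14.5 than at E9.5 (-0.52 ± 0.13; adjusted p = 0.0042) and 1.64-fold lower at P60 than at E9.5 (-0.72 ± 0.13; adjusted p = 3.2e-04). Its step to P60 was -0.19 ± 0.13 (adjusted p = 0.19), and -0.33 with library totals as the scale, which called it (adjusted p = 0.031). Cry2 held 39, 40.9 and 37.3 CPM at E9.5, 40.9, 41.9 and 39.8 CPM at E14.5, and 74.9, 99 and 58 CPM at P60. The embryonic stages overlapped, and all P60 libraries lay above them, though spread among themselves. Cry2 differed by 0.07 ± 0.18 at E14.5 against E9.5 (adjusted p = 0.76) and was 1.89-fold higher at P60 than at E14.5 (0.92 ± 0.18; adjusted p = 7.4e-04). The log2 ratio of Cry2 to Cry1 was -0.20, -0.11 and -0.11 in the E9.5 libraries, 0.34, 0.52 and 0.49 in those of E14.5, and 1.58, 1.79 and 1.21 in those of P60. Its stages did not overlap (exact permutation test, p = 0.0036; adjusted p = 0.0054), and the P60 mean exceeded the E9.5 mean by 1.67.

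**Figure D2:**
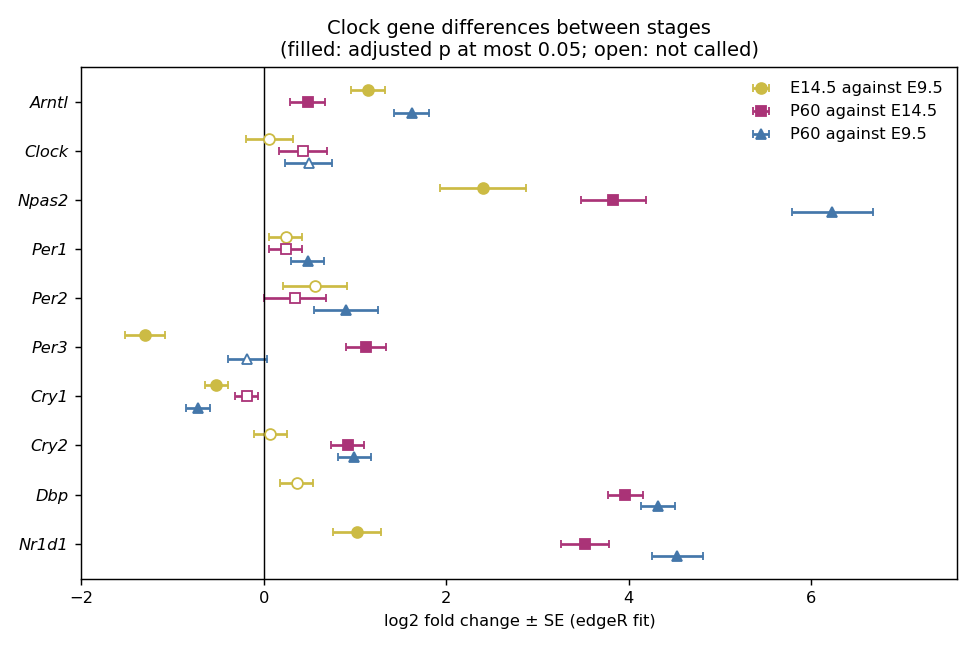
Fitted log2 fold change (x axis) of each clock gene in the 3 comparisons, with bars of 1 SE from the edgeR fit, where filled marks have an adjusted p of at most 0.05. Npas2, Dbp and Nr1d1 lie above 3 at P60 against E14.5, Per3 lies on opposite sides of 0 in the consecutive steps, and Cry1 lies below 0 throughout.

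Nr1d1 and Dbp, both direct targets of the activators in adult tissues, were low in the embryo and far higher at P60. Nr1d1 held 2.41, 2.55 and 2.71 CPM at E9.5, 4.52, 6.13 and 4.89 CPM at E14.5, and 51.7, 84.9 and 41.4 CPM at P60. Its 3 stages did not overlap, and P60 replicate 2 was the highest library. Nr1d1 was 2.02-fold higher at E14.5 than at E9.5 (1.02 ± 0.26; adjusted p = 0.0058) and 11.4-fold higher at P60 than at E14.5 (3.52 ± 0.26; adjusted p = 6.1e-07). Dbp held 3.92, 3.52 and 3.03 CPM at E9.5, 5.46, 4.2 and 3.77 CPM at E14.5, and 64.1, 78.2 and 66.5 CPM at P60. The embryonic ranges overlapped, and the P60 libraries lay close together far above them. Dbp differed by 0.36 ± 0.18 at E14.5 against E9.5 (adjusted p = 0.11), a difference of 0.45 that was called with library totals as the scale (adjusted p = 0.042). Dbp was 15.6-fold higher at P60 than at E14.5 (3.96 ± 0.19; adjusted p = 2.9e-08).

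Relative to Arntl, the receptor gene Nr1d1 and the output gene Dbp were higher at P60 than in the embryo. These are ratios of reads, not per length, and are read only across stages. The log2 ratio of Nr1d1 to Arntl averaged -1.37 ± 0.21 at E9.5, -1.51 ± 0.22 at E14.5 and 1.51 ± 0.22 at P60 (SD, n = 3 each; exact permutation test, p = 0.018; adjusted p = 0.021). For Dbp to Arntl the averages were -0.93 ± 0.15, -1.72 ± 0.26 and 1.80 ± 0.21 (exact permutation test, p = 0.0036; adjusted p = 0.0054). In both ratios all P60 libraries lay above all embryonic libraries.

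**Figure D3:**
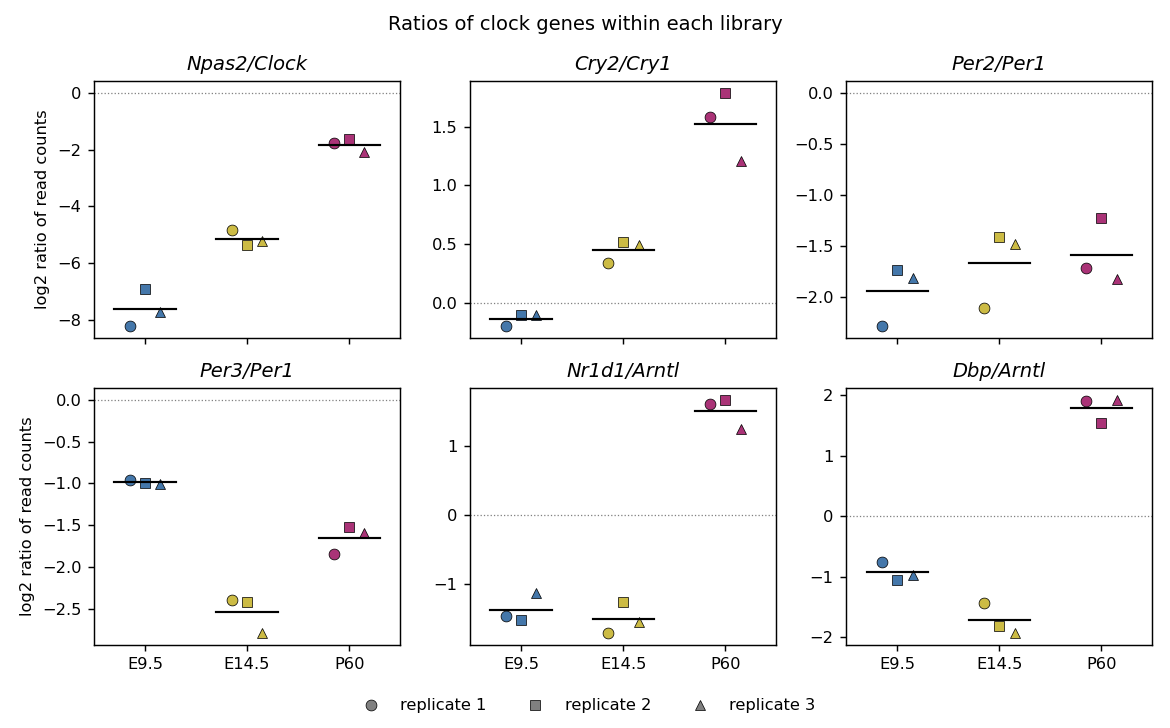
Log2 ratio of counts of 6 clock gene pairs in each of the 9 libraries (y axis) by stage, with a bar at the stage mean. The P60 points of Nr1d1/Arntl and Dbp/Arntl lie above all embryonic points, Cry2/Cry1 steps up at each stage, and Per2/Per1 overlaps across stages.

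Some clock genes share exonic bases with a gene on the opposite strand, and reads of such a pair cannot be told apart with certainty, as the strand setting of the counting is not given in the sources used here. Nr1d1 shares 263 exonic bases (8.55% of its own) with Thra, the thyroid hormone receptor alpha gene. Thra averaged 24 ± 2.92 CPM at E9.5, 678 ± 127 at E14.5 and 740 ± 75.8 at P60 (SD, n = 3 each). Its difference of 4.82 ± 0.20 at E14.5 (adjusted p = 1.9e-08) exceeded the 1.02 of Nr1d1, while at P60 against E14.5 Thra differed by 0.13 ± 0.17 (adjusted p = 0.52). Dbp shares 539 exonic bases (18% of its own) with the sphingosine kinase gene Sphk2, which was lower at P60 than at E14.5 (-0.80 ± 0.19; adjusted p = 0.0026). Cry2 shares 295 bases (4.67%) with D930015M05Rik, which averaged at most 0.633 CPM in any stage. Arntl shares 33 bases (0.439%) with Gm45355, which had no values here. On GRCm38 the genes lie at chr11:98767932-98775333 (Nr1d1, minus strand), chr7:45705088-45710203 (Dbp, plus), chr2:92403646-92434043 (Cry2, minus) and chr7:113207465-113314126 (Arntl, plus).

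The other 6 genes share no exonic base with an opposite-strand gene in that annotation. They lie at chr5:76209868-76304792 (Clock, minus strand), chr1:39193731-39363236 (Npas2, plus), chr11:69095217-69109960 (Per1, plus), chr1:91415982-91459324 (Per2, minus), chr4:151003652-151044665 (Per3, minus) and chr10:85131700-85185064 (Cry1, minus).

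Levels were ranked between genes within a stage on a per-length scale, TPM (counts per base of exon, scaled to the same total in each library). At E9.5 Cry1 was first at 45.9 ± 1.79 TPM, followed by Cry2 at 22 ± 1.35 and Per1 at 19.4 ± 1.04 (SD, n = 3). Clock at 8.63 ± 2.28 TPM came next, then Per3, Per2, Dbp, Arntl and Nr1d1 between 5.74 and 2.97 TPM, and Npas2 was last at 0.132 ± 0.0896 TPM. The neighbours Per3 and Per2, Per2 and Dbp, and Arntl and Nr1d1 overlapped there. At E14.5 the order began with Cry1 at 35.7 ± 1.19 TPM, Per1 at 25.9 ± 5.01 and Cry2 at 25.8 ± 2.51, of which the last pair overlapped. Clock, Per2, Arntl, Nr1d1 and Dbp followed between 10.2 and 5.89 TPM, each overlapping with the next, and Per3 at 2.62 ± 0.487 and Npas2 at 0.793 ± 0.19 TPM were lowest. At P60 Dbp led at 61.9 ± 12.4 TPM, then Nr1d1 at 52.2 ± 25, Cry2 at 32.9 ± 11.8, Cry1 at 20.9 ± 3.62 and Per1 at 20.4 ± 7.05. Clock, Npas2, Arntl, Per2 and Per3 lay between 9.08 and 3.85 TPM. Every neighbouring pair at P60 overlapped except Per1 above Clock. Between stages on this scale, Npas2, Dbp and Nr1d1 at P60 stayed above every E14.5 library. Cry1, whose step to P60 was not called in CPM, was lower on this scale without overlap. It held 34.3, 36.6 and 36.2 TPM at E14.5, and 19.3, 25 and 18.3 TPM at P60. No test was run on TPM. Arntl averaged 7.27 ± 2.65 TPM at P60 and 7.75 ± 0.682 TPM at E14.5, and the P60 libraries of Cry2 and Per3 overlapped with those of E14.5.

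Within P60, replicate 2 was the high library of the clock genes, and replicate 3 was low for most of them. P60 replicate 2 was the highest P60 library for 10 of the 10 clock genes, against 50% of all genes tested and 73.2% of genes with at least 4000 exonic bases and a mean of at least 5 CPM. Per2 spread most within P60, with the highest library 2.58-fold above the lowest and a log2 SD of 0.68, larger than that of 94.3% of genes. The highest P60 library exceeded the lowest 2.11-fold for Npas2, 2.05-fold for Nr1d1, 1.22-fold for Dbp and 1.15-fold for Cry1. The median log2 SD of all genes at P60 was 0.27. Replicate 3 lay about as far below the stage mean as replicate 2 lay above it for Per2 (-0.65 against 0.71), Cry2 (-0.38 against 0.39) and Per1 (-0.41 against 0.35).

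Libraries of a stage also differed by transcript length. In P60 replicate 2 genes of up to 2000 exonic bases lay 0.30 below the stage mean (median deviation in log2 CPM, -0.30) and those over 8000 bases lay 0.32 above it. In E14.5 replicate 1 the medians were 0.38 and -0.26. With this trend removed, Clock deviated by -0.09, 0.05 and 0.03 in the P60 libraries, against -0.16, 0.39 and -0.23 as measured. Per2 deviated by -0.03, 0.54 and -0.53 after removal, against -0.07, 0.71 and -0.65 before it, and Nr1d1 by -0.14, 0.60 and -0.48 against -0.13, 0.58 and -0.45. P60 replicate 2 remained highest for 10 of 10 genes, but the share of all genes highest there after removal was not computed. Its margin was small for Clock (0.05 against 0.03 in replicate 3) and for Per1 (0.19 against 0.10 in replicate 1). The time of day at which each P60 library was collected is not given, and its part in this spread was not tested.

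**Figure D4:**
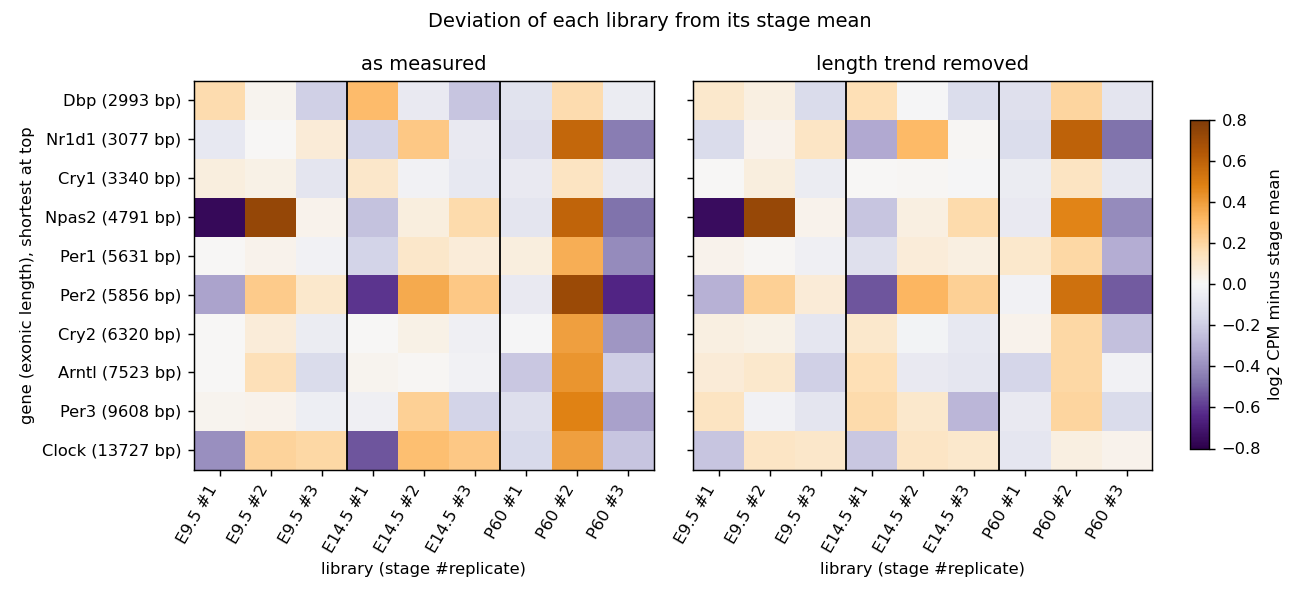
Deviation of each library from its stage mean in log2 CPM (colour) for the 10 clock genes, ordered by exonic length from the shortest at the top, as measured (left) and with the length trend removed (right). The column of P60 replicate 2 is above its stage mean for every gene in both panels, with Per2 at 0.71 as measured and 0.54 after removal.

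The rest of the loop was read from 11 further loop partners. At E14.5 against E9.5, 8 were higher and 2 lower, against 34% and 30.7% of all genes tested (median log2 fold change 0.96, against 0.03 over all genes). At P60 against E14.5, 10 were higher and 1 lower, against 36.7% and 39.4% of all genes, with a median of 2.36 against -0.06 over all genes. At P60 against E9.5 the counts were 9 and 1, against 42% and 40.6% of all genes, with a median of 3.85 against 0.05.

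Nr1d2 (REV-ERB beta), which represses the same sites as NR1D1, averaged 11 ± 1.83 CPM at E9.5, 10.7 ± 0.664 at E14.5 and 158 ± 2.48 at P60 (SD, n = 3 each). It differed by 3.88 ± 0.16 at P60 against E14.5 (adjusted p = 1.1e-08) and by -0.05 at E14.5 against E9.5 (adjusted p = 0.8). The opposing receptors Rora and Rorb rose already at E14.5, by 2.32 ± 0.35 (adjusted p = 1.5e-04) and 3.71 ± 0.26 (adjusted p = 4.9e-07). Rorb differed by only 0.54 ± 0.22 at P60 against E14.5 (adjusted p = 0.042), a call lost in 7 of 9 fits without 1 library, which were each embryonic library and P60 replicate 2, and in 1 of 4 fits with another scaling or DESeq2. Without P60 replicate 2 that difference was 0.22.

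The E-box repressor Bhlhe40 (DEC1) averaged 2.38 ± 0.785 CPM at E9.5, 7.68 ± 0.406 at E14.5 and 98.8 ± 19.9 at P60, a difference of 3.68 ± 0.23 at P60 against E14.5 (adjusted p = 1.6e-07). Ciart (CHRONO), which also represses the activators, fell and then rose as Per3 did. It averaged 6.08 ± 0.755, 1.55 ± 0.439 and 16.6 ± 1.16 CPM at E9.5, E14.5 and P60. Ciart differed by -1.97 ± 0.22 in the first step (adjusted p = 1.5e-05) and by 3.42 ± 0.22 in the second (adjusted p = 2.2e-07). Its 250-base window held CACGTG at 116, 58 and 44 bases before the start. The Dbp relatives Tef and Hlf, which activate D-box genes, were 2.36 ± 0.18 and 3.36 ± 0.30 higher at P60 than at E14.5 (log2; adjusted p = 7e-07 and 2.2e-06). Nfil3 (E4BP4), the D-box repressor, was the lower partner, at 13 ± 0.823 CPM at P60 against 34.4 ± 6.3 CPM at E14.5 (-1.40 ± 0.17; adjusted p = 2.1e-05).

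The 11 genes that modify, stabilise or bind clock proteins were mixed. In the first step 6 were higher and 2 lower (34% and 30.7% of all genes), with a median of 0.47, and in the second 3 were higher and 5 lower (36.7% and 39.4%), with a median of -0.22. At P60 against E9.5, 4 were higher and 5 lower (42% and 40.6%), with a median of 0.13. The casein kinase gene Csnk1e, whose product phosphorylates period proteins, was 1.00 ± 0.21 higher at E14.5 than at E9.5 (adjusted p = 0.0016) and differed by -2.73 ± 0.22 at P60 against E14.5 (adjusted p = 1.1e-06). The kinase gene Gsk3b also rose at E14.5, by 1.02 ± 0.25 (adjusted p = 0.0045), and differed by -2.31 ± 0.26 at P60 (adjusted p = 1.4e-05). Usp2, a rhythmic deubiquitinase gene, differed by 3.30 ± 0.23 at P60 against E14.5 (adjusted p = 3.2e-07). Timeless, a homologue of a fly clock gene with a known role at replication forks, averaged 177 ± 9.79, 44.2 ± 5.39 and 3.34 ± 0.701 CPM at E9.5, E14.5 and P60 (SD, n = 3 each). Its replication fork partner Tipin was lower at E14.5 (-1.53; adjusted p = 1.2e-04). Its step to P60, -0.57 (adjusted p = 0.033), lost its call without E14.5 replicate 1 (-0.34) or P60 replicate 2, and in 3 of 4 fits with another scaling or DESeq2 (range -0.71 to -0.40). Partners and modifiers together gave 18 of 22 called at E14.5 against E9.5, where 64.6% of all genes were called. The count was 19 of 22 at P60 against E14.5, where 76.1% were, and 19 of 22 at P60 against E9.5, where 82.6% were.

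**Figure D5:**
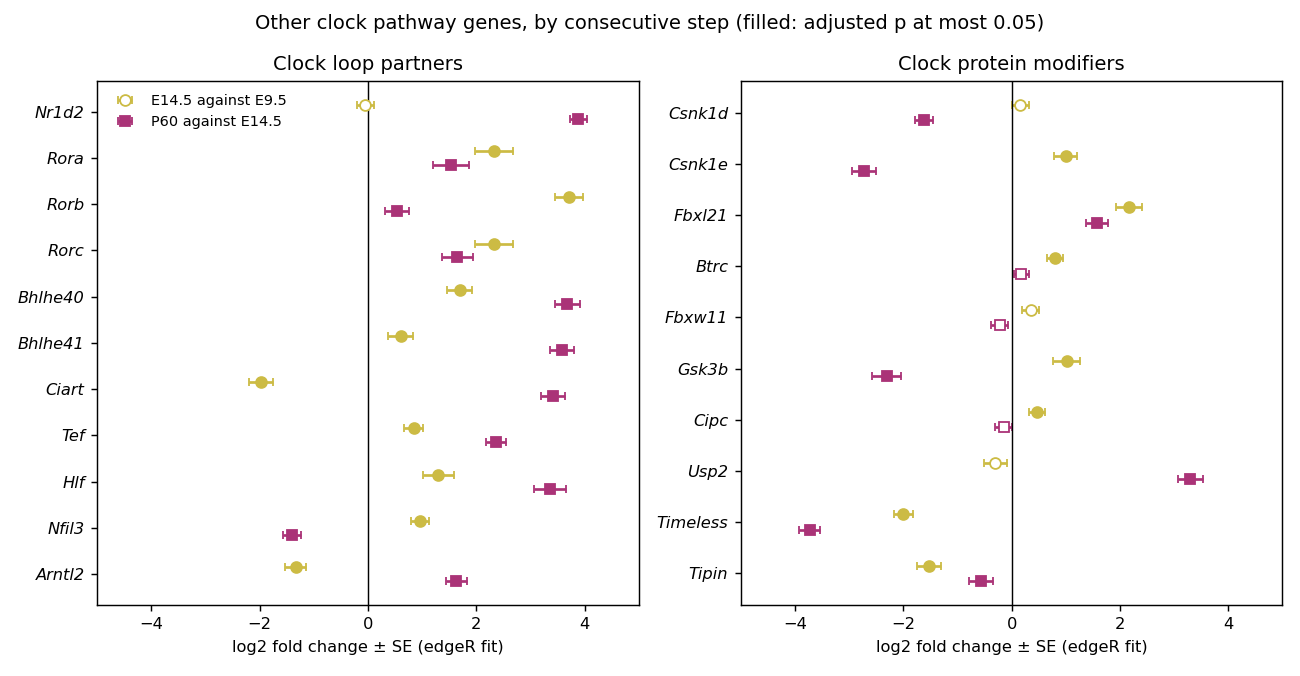
Fitted log2 fold change (x axis, bars of 1 SE) of 11 clock loop partners (left) and 10 of the 11 clock protein modifiers (right) in the consecutive steps, filled where the adjusted p is at most 0.05. At P60 against E14.5 all partners except Nfil3 lie above 0, whereas the modifiers lie on both sides, from Usp2 at 3.30 to Timeless at -3.73.

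The 7 clock-controlled outputs showed no single direction. In the first step 2 were higher and 3 lower, in the second 3 and 3, and at P60 against E9.5 3 and 2. Over all genes, 64.6%, 76.1% and 82.6% were called, and these counts lie near those shares. The medians were -0.39, -0.05 and 0.16, against 0.03, -0.06 and 0.05 over all genes. Nampt, which makes NAD and is under E-box control in liver, averaged 122 ± 10.6, 53.6 ± 2.62 and 112 ± 17.2 CPM at E9.5, E14.5 and P60. It differed by -1.18 in the first step (adjusted p = 4.1e-05) and by 1.06 in the second (adjusted p = 6.5e-05). Wee1, the mitotic kinase gene, was lower in both steps (-1.75, adjusted p = 1.2e-05, and -0.56, adjusted p = 0.018), with the second call lost without E14.5 replicate 3, P60 replicate 1 or P60 replicate 3, and in 1 of 4 fits with another scaling or DESeq2. Tspan4, a tetraspanin gene, fell by 0.99 (adjusted p = 1.8e-04) and then rose by 1.59 (adjusted p = 3.9e-06).

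The 12 genes marking the suprachiasmatic nucleus were measured in whole tissue, where that nucleus is a small share, and 10 passed the filter. They gave 6 higher and 1 lower in the first step, 5 and 4 in the second, and 7 and 2 at P60 against E9.5, where 64.6%, 76.1% and 82.6% of all genes were called. The medians were 2.68, 0.59 and 1.43, against 0.03, -0.06 and 0.05 over all genes. Vip, a peptide of its core that cortical interneurons also make, averaged 60.1 ± 5.81 CPM at P60 and 0.324 ± 0.148 CPM at E14.5 (7.51 ± 0.30; adjusted p = 8.7e-09). Avp, the vasopressin gene, was 18.7, 4.67 and 167 CPM in the P60 libraries, with replicate 3 far above the others. Its difference at P60 against E14.5 was 5.82 ± 1.30 (adjusted p = 0.0025), and 3.38 without that library. Lhx1, which the developing nucleus and other regions need, averaged 0.631 ± 0.23, 42.7 ± 21 and 1.03 ± 0.275 CPM at E9.5, E14.5 and P60. Six6, a gene of the eye field and hypothalamus, fell in both steps, by 3.16 (adjusted p = 4.8e-07) and 3.17 (adjusted p = 2.4e-06). Summed over the list, levels were 77 to 85.6 CPM at E9.5, 154 to 219 at E14.5 and 136 to 303 at P60.

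Genes that respond to glucocorticoids, temperature or acute activity were set beside the clock genes because such signals also act on Per genes. Of 10 glucocorticoid and temperature responsive genes, 4 were higher and 5 lower at E14.5 against E9.5 (median -0.41), against 34% and 30.7% of all genes. At P60 against E14.5, 6 were higher and 2 lower (median 1.07), against 36.7% and 39.4%. At P60 against E9.5, 6 were higher and 3 lower (median 1.02), against 42% and 40.6%. The kinase gene Sgk1 was 1.63 ± 0.18 higher at P60 than at E14.5 (adjusted p = 1.2e-05), whereas Fkbp5, a co-chaperone of the receptor, was at -1.67 ± 0.18 (adjusted p = 7.5e-06). Cirbp, the cold-inducible RNA-binding protein gene, averaged 132 ± 29.8 CPM at P60 and 222 ± 56.4 CPM at E14.5 (-0.75; adjusted p = 0.0087).

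Of 10 immediate early genes, 4 were higher and 1 lower at E14.5 against E9.5 (median 0.97), against 34% and 30.7% of all genes. At P60 against E14.5, 7 were higher and 3 lower (median 2.35), against 36.7% and 39.4%. At P60 against E9.5, 9 were higher and 1 lower (median 4.21), against 42% and 40.6%. Their summed level was 296 to 432 CPM at P60, against 148 to 182 CPM at E14.5. Egr1, an activity-induced zinc finger factor gene, was at 76.5, 134 and 59.3 CPM in the P60 libraries, and averaged 4.57 ± 0.796 CPM at E14.5 (4.30 ± 0.31; adjusted p = 4.7e-07). Replicate 2 was its highest P60 library, as it was for the clock genes and for 50% of all genes tested. Dusp1, a phosphatase gene, and Jun, a subunit gene of AP-1, were lower at P60 than at E14.5, with log2 fold changes of -0.82 (adjusted p = 2e-04) and -0.58 (adjusted p = 0.0072). The part of acute induction in the P60 levels of the clock genes was not tested.

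The genes whose profiles lay nearest to each clock gene were found by Euclidean distance between centred log2 CPM over the 9 libraries. The libraries fall into 3 stages, so the distances mostly describe stage means. Nearest to Nr1d1 were Hlf and Arap2 (distance 0.52 each), of which Hlf is a partner named above. For Dbp the nearest were Cd209a at 0.40 and Dact2 at 0.42. Cd209a averaged 1.17 CPM at P60, 0.0194 at E14.5 and 0 at E9.5, so its embryonic profile and that distance are set by the prior count of 2. For Npas2 the nearest were Gpr151 at 0.89 and Kcnip4 at 1.02. Per3 lay nearest to Etv5 at 0.41 and Gltp at 0.44, which averaged 43.7 and 44.1 CPM at P60, against 23.7 and 23 CPM at E14.5. Cry1 lay nearest to Rnf126 at 0.16 and Copb2 at 0.18, and Cry2 to Acot6 at 0.35 and Patj at 0.39. The nearest genes to Arntl were Mapk9 at 0.38 and Bcas3 at 0.40, and those to Clock were Stard13 at 0.33 and Fam169a at 0.36. Per1 lay nearest to Coro7 at 0.27 and Csf1 at 0.29, and Per2 to Dnah5 at 0.41 and Phlpp1 at 0.47.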

How the data were processed

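The authors deposited 1 table of raw counts by gene for 9 libraries. Libraries were made with a kit that primes on poly(A) and amplifies full-length cDNA, per the labels' protocols. Trimmomatic 0.36, STAR 2.5.2b and the mm10 build are named in the submitters' processing notes; the counting program, annotation and strand setting are not given in the sources used here. All value columns were used. Of 45706 identifiers, 45143 matched GENCODE M21 (GRCm38), the source of symbols, coordinates and exonic lengths, and 16156 had no reads.

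Tests used edgeR 4.0.16 under R 4.3.3 (filterByExpr by stage, TMM, robust quasi-likelihood). A single model held all 9 libraries and the factor stage, and tests were two-sided, with Benjamini-Hochberg adjustment over 17971 genes and a threshold of 0.05. The SE was taken as the size of the log2 fold change divided by the root of F. Depth was 30481975 to 35619093 counts per library, and the biological coefficient of variation was 19.9%, so spread between libraries limits the precision of abundant genes. Gene pairs were compared as log2 ratios of counts plus 0.5, with an exact permutation test of F over 1680 assignments and adjustment over 6 pairs. TPM was computed from counts and exonic length. The within-stage length trend was a lowess curve (span 0.5) of deviations from the stage mean on exonic length, over genes with a mean of at least 5 CPM.

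The members and lists were chosen with earlier results of these data known. Named genes were all 10 members, from each list and step up to 2 rises and 2 falls by fold change among called genes whose higher stage averaged at least 5 CPM, the 2 nearest profiles of each member, and genes overlapping a member. Tef was named after its values were seen. Values of 1 gene that the rule named are not reported here. Alternatives were 3 other scalings, no filter, DESeq2 1.42.0, ratios of mean CPM, calls of at least 2-fold, a replicate block, another pseudocount, and leaving out each library; removal of the length trend was added after seeing the data. The scripts were tested on simulated data. In the 3 comparisons there, 41%, 52% and 53% of 2-fold changes were recovered, and 87%, 82% and 87% of 4-fold changes. Of the calls there, 3.76%, 8.22% and 6.04% were of unchanged genes. Only a small share of genes was changed in the simulation, whereas 64.6% to 82.6% of genes were called in the data. These rates therefore do not carry over to the clock genes. A lack of a call is still not evidence that a gene is unchanged.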

Additional observations from a re-analysis of the deposited data

How the results depend on the processing

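With calls of at least 2-fold, 11 of the 22 partners and modifiers were called at E14.5 against E9.5 (18 without that limit) and 4 of the 10 clock genes at P60 against E9.5 (8 without it). With the replicate number as a block, the P60 minus E9.5 difference of the Nr1d1/Arntl ratio stayed 2.87. Its adjusted p was 0.1 in an exact permutation test within replicate numbers, against 0.021 in that over all libraries. Permuting within replicate numbers allows fewer assignments, so the smallest p possible there is higher than without the block. The block called 5, 7 and 9 clock genes in the 3 comparisons, against 5, 6 and 8; it called Clock at P60. Same-numbered libraries deviated together with r of -0.22 to 0.37 and differently numbered ones with -0.41 to 0.34, and the labels do not say that the numbers mark pairs. Clock at E14.5 against E9.5 was -0.02 with median of ratios scaling, -0.01 with DESeq2, and -0.09 to 0.29 without 1 library. Cry2 in that step was -0.02 with median of ratios scaling and -7.1e-05 with DESeq2. Without 1 library, Per2 at P60 against E14.5 was -0.10 to 0.60, and Per3 at P60 against E9.5 was -0.45 to 0.0036. The cause of these changes was not tested.

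Without 1 library, 5 clock genes were called in the first step in every fit, 5 to 7 in the second and 6 to 9 at P60 against E9.5; for partners and modifiers the counts were 16 to 19, 17 to 19 and 18 to 19. Library totals as the scale moved the median of all genes to 0.12 at E14.5 against E9.5 and -0.20 at P60 against E14.5; upper quartile scaling moved it to 0.10 at P60 against E14.5 and 0.20 at P60 against E9.5. Upper quartile scaling called Clock at P60 against E9.5 (0.64, adjusted p = 0.035). Without the filter on low counts, 40.2%, 50% and 56.7% of the larger set of genes were called in the 3 comparisons, against 64.6%, 76.1% and 82.6% with it. Depth limits Npas2 at E9.5, where 2 to 9 reads were counted per library. The calls of Npas2, Nr1d1, Dbp and Per3 at P60 against E14.5 held in all alternatives that gave a test, and that of Cry2 in all except calls of at least 2-fold, where its 0.92 falls short.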
